A study of Mus musculus with 4 samples.

Results

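The cells described here were 77 Ppy-rich barcodes of mouse pancreatic islets, set apart as pancreatic polypeptide and ghrelin hormone cells. A barcode stands for 1 droplet, usually 1 cell, and its unique molecular identifiers (UMIs) count captured RNA molecules. A barcode was taken when it held at least 1000 UMIs with at most 20% from mitochondrially encoded genes, when Ppy and Ghrl together made up at least 1% of its UMIs and exceeded both Gcg and Sst, and when Ins1 and Ins2 together stayed under 10%. The rule took 77 of 5009 barcodes that passed the UMI and mitochondrial limits. The wild-type library gave 36 of 2097, or 1.72% (95% exact binomial interval 1.21% to 2.37%), and the Malat1-null library gave 41 of 2912, or 1.41% (1.01% to 1.91%). Since hormone UMIs chose these barcodes, their Ppy, Ghrl, Gcg, Sst and insulin levels are a description and were not tested.

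The islets came from C57BL/6 mice that were wild type or Malat1-/-, lacking the long non-coding RNA Malat1. Islets of both genotypes were cultured in RPMI with serum, received TCDD, a persistent dioxin and ligand of the aryl hydrocarbon receptor (AhR), and were dissociated and profiled with 10x Genomics 3′ single-cell RNA sequencing. The series holds 4 samples, 1 for each genotype with DMSO or TCDD, and only the 2 TCDD libraries were analysed here, so no effect of TCDD could be read. The labels name the beta cell as the cell type although the suspension was of whole islets, and they give neither the TCDD dose and time nor the number of mice behind a library. With 1 library per genotype, a genotype difference cannot be told apart from a difference between these libraries, and the intervals given cover counting error only.

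PP cells secrete pancreatic polypeptide (Ppy), a hormone that acts through Y receptors to restrain exocrine secretion and appetite. They are the rarest of the main endocrine cells and are most frequent in the part of the pancreas next to the duodenum. Its relative peptide YY (Pyy) is made in the same cells and, at lower levels, in alpha and delta cells. Epsilon cells make ghrelin (Ghrl), a hunger hormone that needs acylation by Mboat4, and are mostly a feature of the fetal islet. Alpha cells make glucagon (Gcg), delta cells somatostatin (Sst) and beta cells insulin (Ins1, Ins2).

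The ghrelin part of the working name was not borne out. In all 77 barcodes Ppy exceeded Ghrl, so 0 of 77 were led by Ghrl, which by a limit of 3 counts allows a share of up to 3.90% (8.33% in wild type and 7.32% in Malat1-null). Ghrl UMIs were present in 0 of 36 wild-type barcodes and in 1 of 41 Malat1-null barcodes. That barcode was the deepest of its library's Ppy barcodes, with 101742 UMIs, and held 7555 Ghrl UMIs, or 7.43% of its total, beside 24802 Ppy, 10347 Pyy, 2784 Gcg, 0 Sst and 215 insulin UMIs. It held no UMI of Mboat4. Of the 9 genes besides Ghrl on the ghrelin cell list used here, Mboat4 included, only Acsl1 was seen, with 4 UMIs. Acsl1 is an enzyme that activates fatty acids. Among the Malat1-null barcodes read in, which leaves out nearly empty droplets, this barcode carried 99.3% of 7606 Ghrl UMIs, and no other barcode held more than 2. Counted in the same way, the wild-type library had 11 Ghrl UMIs in 10 barcodes. The cells are therefore called Ppy barcodes below.

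Pancreatic polypeptide made up a large share of the RNA of these cells. Ppy accounted for a lowest, median and highest share of 3.09%, 35.2% and 53.1% of UMIs in the 36 wild-type barcodes, and of 4.73%, 27.4% and 54.7% in the 41 Malat1-null barcodes. The ranges of both genotypes overlapped. Ppy was at least 20% of UMIs in 30 of 36 and 29 of 41 barcodes. The limit of 1% fell in a gap: the highest share below it among barcodes that met the other limits was 0.193% in wild type and 0.0882% in Malat1-null.

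Peptide YY was present in every Ppy barcode. Its share ran from 0.933% through a median of 9.94% to 20.5% in wild type, and from 0.935% through 9.72% to 20.3% in Malat1-null. It was at least 1% of UMIs in 35 of 36 and 40 of 41 barcodes, and it exceeded Ppy in 4 and 2. Across barcodes of a library the 2 shares were only loosely related, with a Pearson correlation of -0.26 in wild type (n = 36) and 0.36 in Malat1-null (n = 41). Shares within a barcode add up to a whole, which ties them to each other.

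The Ppy and Pyy genes are neighbours on chromosome 11, on the same strand. In mm10 (GENCODE M21) Ppy (ENSMUSG00000017316) lies at chr11:102099930-102101319 and Pyy (ENSMUSG00000017311) at chr11:102106676-102107832, both on the minus strand and 5356 bases apart. The 250 bases before each annotated start are shown because these 2 genes mark the cells. They come from RefSeq (GRCm38.p6) at chr11:102101320-102101569 and chr11:102107833-102108082, and capitals mark the motifs found. For Pyy, which has 2 windows in the table, the one that ends at the annotated start is shown.
Ppy: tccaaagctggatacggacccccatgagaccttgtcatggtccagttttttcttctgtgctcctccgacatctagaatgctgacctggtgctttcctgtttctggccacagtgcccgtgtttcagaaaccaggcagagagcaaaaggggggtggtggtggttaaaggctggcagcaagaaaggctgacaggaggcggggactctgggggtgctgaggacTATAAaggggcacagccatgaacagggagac
Pyy: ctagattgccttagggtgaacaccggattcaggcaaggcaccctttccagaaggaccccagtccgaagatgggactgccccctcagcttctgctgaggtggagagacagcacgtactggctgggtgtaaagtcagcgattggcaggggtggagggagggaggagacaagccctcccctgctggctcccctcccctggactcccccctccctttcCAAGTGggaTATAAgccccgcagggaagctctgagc
Both windows were searched on both strands for 4 motifs. TATAA, the core of a TATA box, was found once in each, 31 bases before the Ppy start and 27 before the Pyy start, and 22.8% of 32851 promoter windows of this length hold it. The E-box CANNTG was found once, 36 bases before the Pyy start, against 66.2% of all windows. It does not overlap TATAA. The homeodomain site TAATTA (4.84% of windows) and the AhR element core GCGTG (28.2%) were not in either window.

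Tspan8, a membrane protein of the tetraspanin family used as a marker of PP cells, was detected in nearly all Ppy barcodes. It had at least 1 UMI in 33 of 36 wild-type and 39 of 41 Malat1-null barcodes, at medians of 481 and 522 CPM, the usual scaling of a count to its library or barcode total (ranges 0 to 1419 and 0 to 1225). Detection was as common in delta barcodes, with a Tspan8 UMI in 19 of 22 (86.4%) and 41 of 42 (97.6%), at median depths of 24249.5 and 16382 UMIs. Alpha barcodes had one in 18 of 39 (46.2%) and 33 of 83 (39.8%). Among the far deeper beta barcodes 241 of 954 (25.3%) and 326 of 2016 (16.2%) had a Tspan8 UMI, at median depths of 60691 and 45810 UMIs. Ppy barcodes had median depths of 33457.5 and 28949 UMIs, with 4842 and 4271 genes. Tspan8 (ENSMUSG00000034127) lies at chr10:115816832-115849893 on the plus strand.

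Many Ppy barcodes carried a second islet hormone. Gcg alone reached at least 1% of UMIs in 7 wild-type and 15 Malat1-null barcodes, Sst alone in 4 and 6, and both in 0 and 2, which left 25 of 36 (69.4%, 95% exact interval 51.9% to 83.7%) and 18 of 41 (43.9%, 28.5% to 60.3%) with Ppy as the only one of these 3 hormones past 1%. These shares rest on hormones that the rule used and on 1 library each, so they were not compared. The Gcg-bearing group had median Gcg shares of 3.44% and 6.57%, up to 11.7% and 16.2%, beside median Ppy shares of 28.2% and 22.5%. In the Sst-bearing group the median Sst share was 6.46% and 3.23% and the median Ppy share 11.3% and 19.1%. Levels in nearly empty droplets were lower: in barcodes of 10 to 100 UMIs, Gcg stood at 1247 and 971 CPM in wild type and Malat1-null, and Sst 694 and 992. Mixed hormones were not particular to Ppy barcodes. In wild type and Malat1-null, Ppy made up 1.47% and 0.839% of the summed UMIs of alpha barcodes. In delta barcodes it made up 2.81% and 2.44%.

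**Figure D1:**
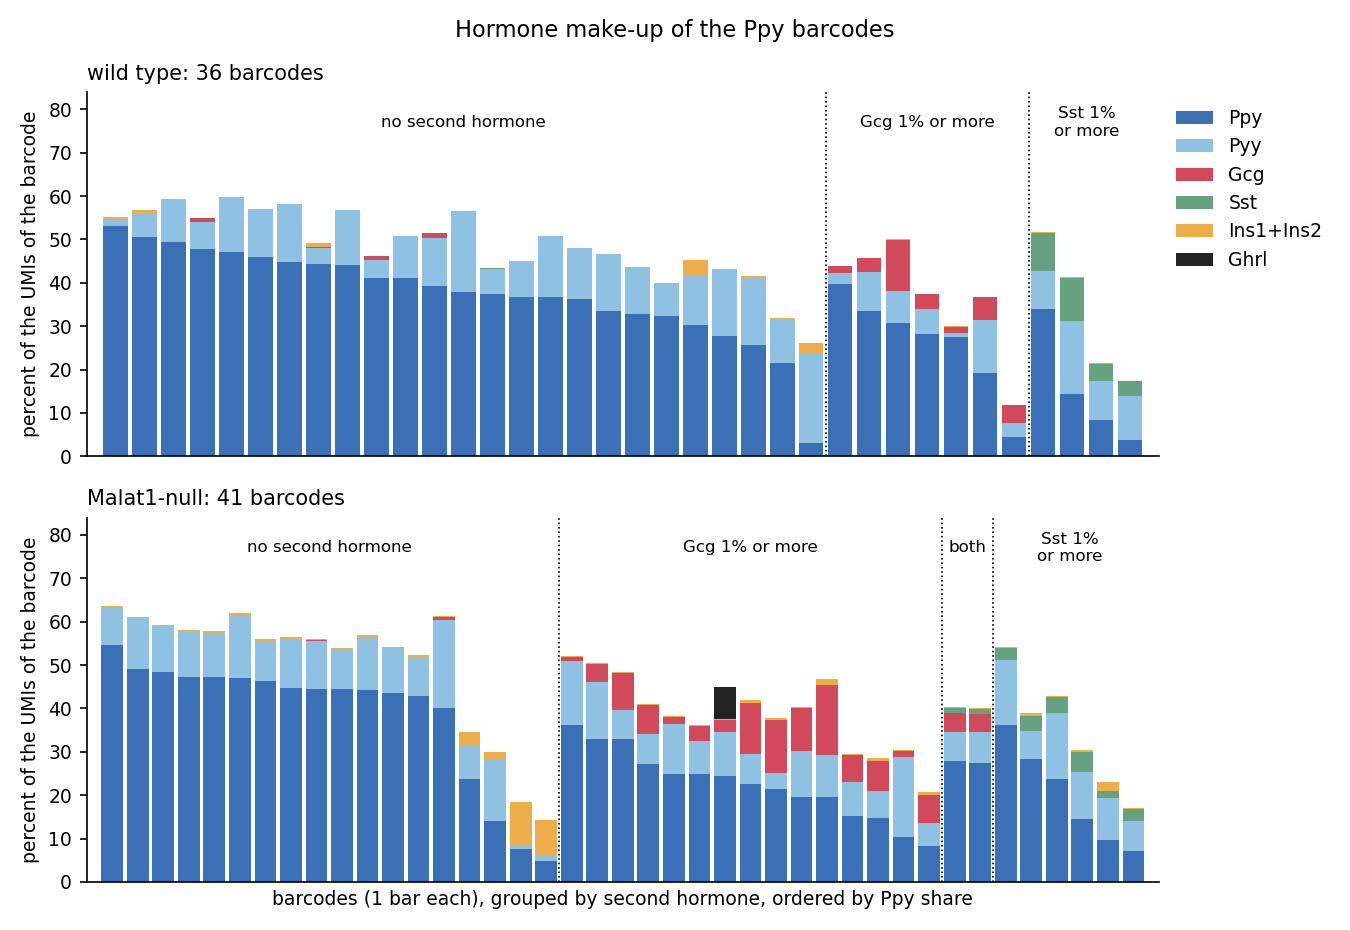
Hormone make-up of the 77 Ppy barcodes. Each bar is 1 barcode, stacked by the percent of its UMIs from each hormone gene (y axis), grouped by a second hormone at 1% or more and ordered by Ppy share. Ghrl (black) appears in 1 Malat1-null barcode, and Gcg-bearing barcodes number 7 in wild type and 15 in Malat1-null.

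Depth overlapped between these groups. Median UMIs were 37862 and 26383 in barcodes without a second hormone, 34075 and 29734 in those with Gcg, and 23821.5 and 24653.5 in those with Sst (wild type and Malat1-null). In wild type no Ppy barcode exceeded 2 times the library's median, whereas in Malat1-null 7 did, 4 of them with Gcg and 3 without a second hormone. No doublet caller was run, and whether 2 cells in 1 droplet account for the barcodes with 2 hormones was not tested.

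Several alpha and delta cell genes were highest in the Ppy barcodes with the matching second hormone. The homeodomain gene Irx1 had UMIs in 4 of 7 wild-type and 7 of 15 Malat1-null Gcg-bearing barcodes (37.8 and 22.8 CPM, here over all UMIs of the group without TMM scaling). It had UMIs in 0 of 25 and 1 of 18 barcodes without a second hormone (0 and 1.81 CPM), and in 0 of 4 and 0 of 6 with Sst. Ttr, the thyroid hormone carrier transthyretin and an abundant alpha cell transcript, stood at 756 and 4731 CPM with Gcg, at 231 and 363 without a second hormone, and at 173 and 622 with Sst. Slc38a5, a glutamine transporter induced in alpha cells, had 45.7 CPM in the Malat1-null Gcg group and 0 in the wild-type one, and 11.5 CPM (1 UMI) in the wild-type Sst group.

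Hhex, the transcription factor that maintains delta cells, was found in 3 of 4 wild-type and 5 of 6 Malat1-null Sst-bearing barcodes (69.1 and 95.2 CPM) and in 0 of the barcodes with Gcg alone or with no second hormone. Both of the Malat1-null barcodes with Gcg and Sst also held it. The receptor phosphatase Ptprz1 was likewise found in 3 of 4 and 5 of 6, at 57.6 and 76.1 CPM with Sst. Rbp4, the retinol carrier, reached 8464 and 3286 with Sst against 161 and 170 without a second hormone. Iapp, the amyloid peptide of beta and delta cells, was at 48759 and 30249 with Sst, 1726 and 2557 with Gcg, and 4551 and 7392 without a second hormone. Because the hormone shares chose these groups after the data were seen, the values are a description with no test.

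**Figure D2:**
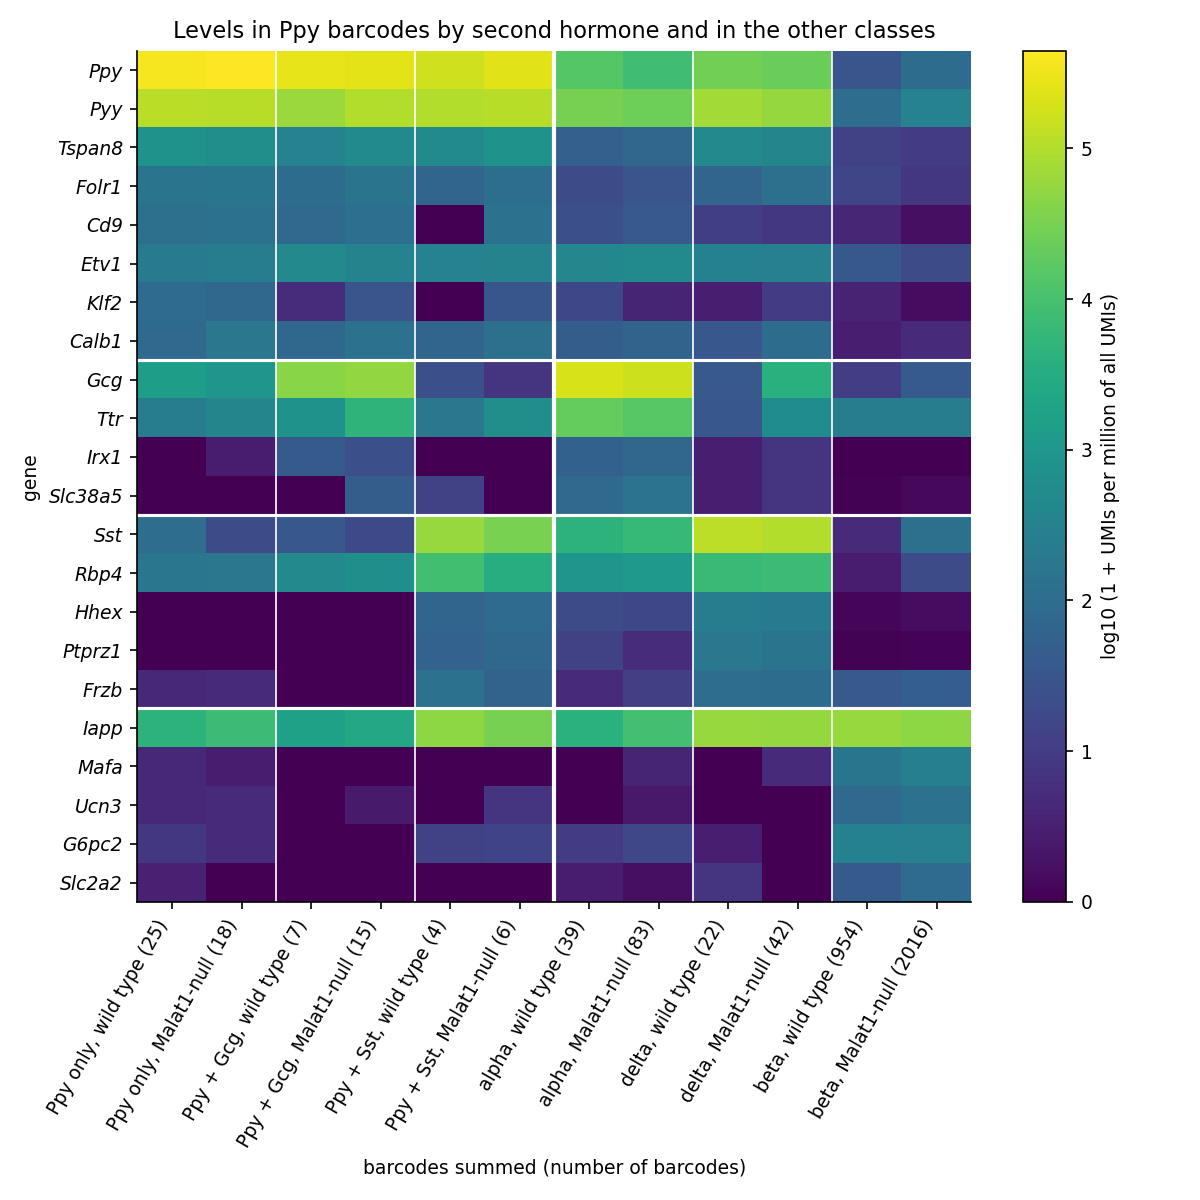
Levels of marker genes (rows) in Ppy barcodes by second hormone and in alpha, delta and beta barcodes (columns, 1 per library, number of barcodes in parentheses), as log10 of 1 plus CPM over all UMIs. Irx1 is at 0 and 1.81 in the Ppy-only columns and at 37.8 and 22.8 in the Ppy + Gcg columns, and among the Ppy columns Hhex is above 0 in the Sst-bearing ones only, at 69.1 and 95.2. The 2 Malat1-null barcodes with both hormones are not drawn.

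To see which genes set Ppy barcodes apart from other islet cells, they were compared with alpha barcodes (39 wild type, 83 Malat1-null), delta barcodes (22 and 42) and beta barcodes (954 and 2016) chosen by their own hormone shares. UMIs were summed per class and library, and edgeR's quasi-likelihood test with the library as a term was applied to 9398 genes. The 6 hormone genes of the rules (Ppy, Ghrl, Gcg, Sst, Ins1, Ins2) were left out of the calls, and a gene was called at a Benjamini-Hochberg adjusted p under 0.05 and beyond 2-fold. The library term takes up the mean difference between the 2 libraries. The p-values therefore measure how far class differences vary between these libraries, pooled over the classes. The libraries also differ in genotype. Against alpha barcodes 148 genes were higher and 136 lower in Ppy barcodes (1.57% and 1.45% of those tested, 3.02% in either direction). Against delta barcodes 214 were higher and 278 lower (2.28% and 2.96%, 5.24% in all), and against beta barcodes 652 and 702 (6.94% and 7.47%, 14.4% in all). Levels in the next paragraphs are CPM scaled by TMM factors over all 8 sums, given for wild type and then Malat1-null.

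Of 14 PP cell genes on the list, 9 were tested. Against alpha barcodes 3 were higher and none lower, with a list median log2 fold change of 0.81 beside 0.00 for all genes tested. Against delta barcodes 3 were higher and 2 lower (median 0.62 beside 0.01), and against beta barcodes 6 were higher and 1 lower (3.16 beside -0.01). Tspan8 was higher than in every other class: Ppy barcodes had 699 and 642 CPM, alpha 46.9 and 57.4, delta 347 and 274, and beta 16.0 and 13.1. Its log2 fold change was 3.68 against alpha, 1.11 against delta and 5.61 against beta (edgeR adjusted p = 7.9e-09, 2.9e-04 and 3e-12). The wild-type library alone gave 1.01 against delta and the Malat1-null library 1.23, the smallest of its 3 differences in each. Under total-UMI scaling the difference of Tspan8 from delta barcodes was 0.54 and was not called. Folr1, a folate receptor, stood at 147 and 161 CPM against 15.6 and 23.3 in alpha, 51.6 and 88.9 in delta and 19.8 and 11.5 in beta barcodes, and was called in all 3 comparisons.

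Pyy itself was also found in alpha and delta barcodes, which held Ppy as well. Whether mixed barcodes account for its level there was not tested. Pyy stood at 113142 and 114882 CPM in Ppy barcodes, 26616 and 19745 in alpha, 54895 and 41411 in delta, and 147 and 509 in beta barcodes. By edgeR's quasi-likelihood test with Benjamini-Hochberg adjustment it was higher than in alpha (log2 2.30, adjusted p = 0.01) and beta barcodes (8.58, 6.1e-08), while the difference from delta barcodes (1.21) had an adjusted p of 0.15. The ETS factor Etv1 was called against beta barcodes (311 and 349 against 50 and 29.8 CPM, log2 3.16) and was at 361 and 383 in alpha barcodes. Isl1, a LIM factor of all islet endocrine cells, was lower than in delta barcodes by a log2 fold change of -1.12.

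Of the 26 transcription factors tested, 1 was higher and 3 lower than in alpha barcodes, 4 and 5 than in delta barcodes, and 10 and 5 than in beta barcodes. Over all genes tested, 3.02%, 5.24% and 14.4% were called in either direction. Nkx6-1, best known as a beta cell factor, was intermediate in Ppy barcodes: 66.8 and 52.9 CPM, against 11.7 and 12.5 in alpha, 1.52 and 21.6 in delta, and 153 and 162 in beta barcodes. Its log2 fold change was 2.32 against alpha, 2.09 against delta and -1.32 against beta (edgeR adjusted p = 0.0017, 0.0039 and 5.8e-04). The last of these was lost when libraries were scaled by total UMIs, and DESeq2 called none of the 3. Klf2, an immediate-early zinc finger factor, was called higher against every class, but 1 barcode in each library held 50% or more of its UMIs, and the call against alpha barcodes was lost without the library term.

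Alpha cell genes were lower than in alpha barcodes, with 0 of 7 tested higher and 5 lower (median log2 -2.07). Ttr was at 367 and 3127 against 17780 and 11804 CPM (-3.73), and the gluconeogenic enzyme Fbp1 at 15.1 and 18.7 against 179 and 143 (-3.21). Without the library term the call of Ttr (-3.07) was lost. Gstm1, a glutathione transferase, was higher than in alpha barcodes (96.0 and 173 against 21.1 and 42.0 CPM, log2 2.09), as was the sulfotransferase Sult1d1 (88.4 and 66.1 against 7.04 and 15.9, 2.75).

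All 4 delta cell genes tested were lower than in delta barcodes, with a median log2 fold change of -3.86. Hhex was at 5.65 and 14.8 CPM against 174 and 151 (-3.97), and Cd24a, a surface glycoprotein that is not on that list, at 19.8 and 28.8 against 481 and 500 (-4.35). Rbp4 was at 920 and 924 CPM against 5036 and 5407 (-2.51), a call lost without the library term and under DESeq2. In the other direction Cadps, a protein that primes dense-core vesicles for release, stood at 67.7 and 66.1 CPM against 0 and 6.04 in delta barcodes.

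All 10 beta cell genes tested were lower than in beta barcodes, at a median log2 fold change of -5.34. Mafa, a factor of mature beta cells, was at 2.82 and 0.778 CPM against 213 and 421, Ucn3 at 2.82 and 3.11 against 115 and 198, and the glucose-6-phosphatase subunit G6pc2 at 6.59 and 3.89 against 422 and 450. Kcnk3, a background potassium channel, was higher in Ppy barcodes (60.2 and 62.2 against 0.165 and 0.328 CPM, log2 7.88). Trpm5, a calcium-activated cation channel, was listed at 0 in Ppy barcodes of both libraries and at 48.2 and 65.3 CPM in beta barcodes.

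Hormone-processing and receptor genes also separated the classes. The prohormone convertase Pcsk1 stood at 12.2 and 20.2 CPM in Ppy barcodes and at 171 and 188 in beta barcodes (log2 -3.39), while Pcsk2, the other convertase, was called in no comparison. The granin Scg2 was higher than in alpha barcodes (1.19, and 0.75 and not called under total-UMI scaling) and Chgb lower than in delta barcodes (-1.50). Glp1r, the receptor of the incretin GLP-1, was at 25.4 and 16.3 CPM against 382 and 446 in beta barcodes (-4.25) and 6.26 and 6.81 in alpha barcodes (1.67). The fatty acid receptor Ffar4 was at 32.0 and 17.9 CPM against 0.212 and 0.406 in beta barcodes (6.30), whereas Ffar1 was lower than in beta barcodes (-1.89) and higher than in delta barcodes (4.15). The muscarinic receptor Chrm3 was at 14.1 and 13.2 CPM, against 3.13 and 0.568 in alpha barcodes and 0 in delta barcodes of both libraries.

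Of 76 ribosomal protein genes tested none was called in any comparison, and of 85 oxidative phosphorylation genes 2 were lower than in beta barcodes. Of 18 hypoxia and glycolysis genes 1 was higher and 9 lower than in beta barcodes, where 14.4% of all genes were called. The lower ones included Pgk1 (log2 -1.36) and Eno1 (-1.17), and Eno1 was not called under total-UMI scaling (-0.83) or without the library term.

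Against all 3 other classes 15 genes were higher and 5 lower, a set named after its values were seen. Beside Tspan8, Folr1 and Klf2 it held Cd9, another tetraspanin, at 117 and 135 CPM against at most 29.0 in any other class. Calb1, a calcium buffer, was at 90.3 and 159 CPM against 38.3 and 47.7 in alpha, 25.8 and 69.0 in delta, and 2.71 and 5.66 in beta barcodes. The others included Cyp3a13, Hspb8, Pid1, Mpped2, Snhg18, Bbc3, Fxyd3, Rflna and Apoe, of which Apoe had 98.8% of its Malat1-null UMIs in 1 barcode. The 5 lower genes were Mrln, Tmem65, Rgs4, Runx1t1 and Car8, and Rgs4, a regulator of G protein signalling, stood at 49.9 and 27.2 CPM against 62.1 or more elsewhere. Apoe was lower in wild-type Ppy barcodes (0.941 CPM) than in the other wild-type classes (1.56 to 4.55), so its calls rested on the Malat1-null library. Scaling by total UMIs ended the calls of Tspan8, Folr1, Fxyd3, Calb1 and Snhg18 against delta, of Bbc3 and Rflna against alpha, and of Car8 (log2 -0.73) and Runx1t1 (-0.95) against beta barcodes. Leaving out the library term ended those of Apoe, Bbc3, Calb1, Fxyd3 and Rgs4 against alpha and delta, of Klf2, Mrln and Runx1t1 against alpha and of Folr1 against delta barcodes. DESeq2 did not call Folr1 against delta or Apoe against any class, and Cyp3a13 was not called against alpha without a second hormone.

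The genotype labels were checked first. Malat1 (chr19:5795690-5802672, minus strand) had 41917 UMIs in the wild-type Ppy barcodes, with a UMI in 36 of 36 and a median share of 3.45%, and 2 UMIs in 2 of 41 Malat1-null barcodes. To ask how Ppy cells differ between genotypes, UMIs were summed over the 36 and 41 barcodes and scaled to CPM with TMM factors of these 2 sums. A gene counted as apart when it reached 50 CPM in a library and 50 UMIs in all, differed beyond 2-fold, and had a 95% exact interval of its ratio beyond 1.5-fold. Of 2101 genes measured, 18 were higher (0.857%) and 21 lower (1%) in Malat1-null. With 1 library per genotype no test was possible.

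PP cell identity genes lay close to 1. Of the 8 measured on that list none was counted as apart. Tspan8 had 743 wild-type and 825 Malat1-null UMIs, for a ratio of 0.921 (0.833 to 1.02). Pyy had a ratio of 1.02, and Ppy, which chose the barcodes, of 0.985. Of 9 granin and convertase genes, 75 ribosomal protein genes and 76 oxidative phosphorylation genes none was apart, and no AhR target reached the limits.

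**Figure D3:**
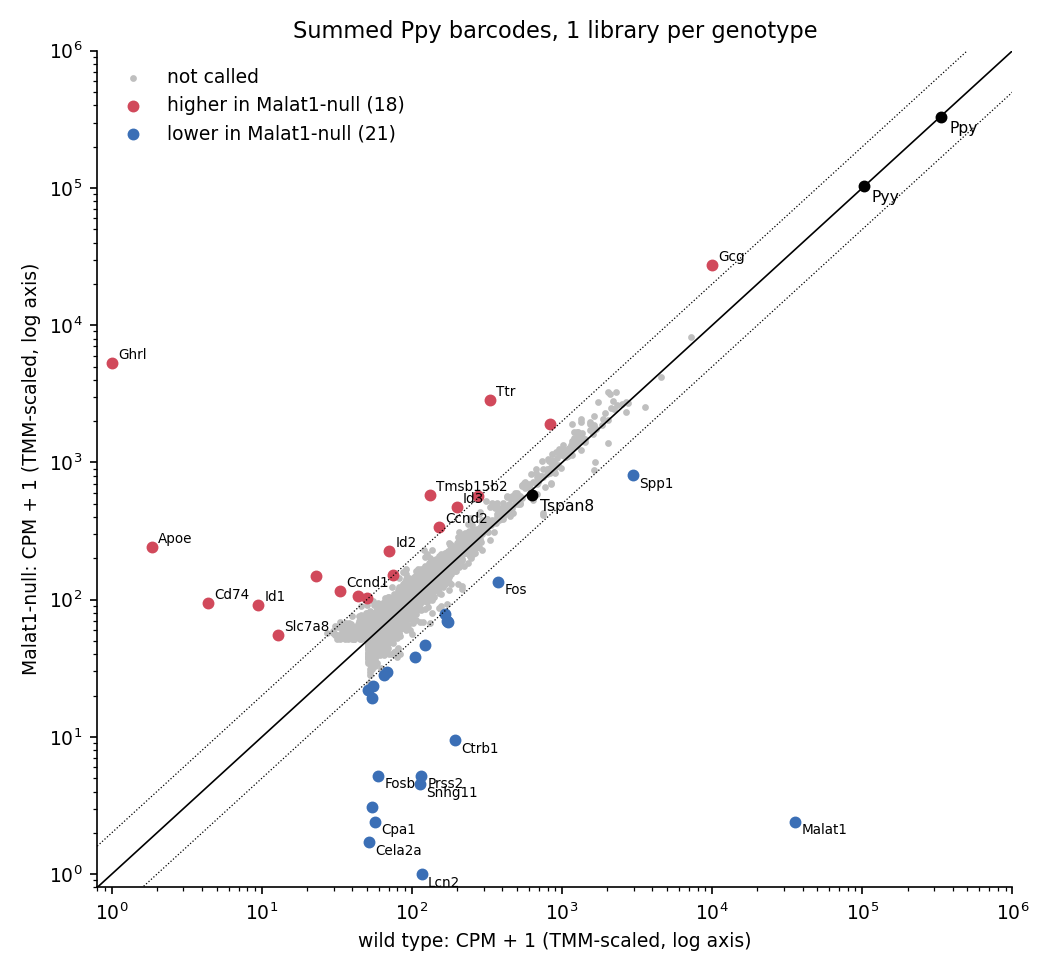
Level of each measured gene in wild-type (x axis) and Malat1-null (y axis) Ppy barcodes, as TMM-scaled CPM plus 1 on log axes. Red marks the 18 genes higher and blue the 21 lower in Malat1-null, dotted lines mark 2-fold, and Ppy, Pyy and Tspan8 in black lie near the diagonal.

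Of 13 islet transcription factors and regulators measured, 4 were higher in Malat1-null Ppy barcodes and none lower, among them Id1, Id2 and Id3. Over all 2101 genes measured, 0.857% were higher and 1% lower. Id proteins bind basic helix-loop-helix factors and keep them off DNA. Id2 had 82 wild-type and 320 Malat1-null UMIs (69.5 and 225 CPM, ratio 3.24, interval 2.53 to 4.18), and Id3 233 and 668 (198 and 470 CPM, 2.38, 2.05 to 2.77). Both were also apart in barcodes without a second hormone, at 2.57 and 2.48. Id1 had 10 and 129 UMIs, a ratio of 10.7 (5.64 to 22.8), with a UMI in 4 of 36 and 23 of 41 barcodes, but was not counted as apart without a second hormone (5.66). Among single genes, the cyclin D1 gene Ccnd1 had 38 and 162 UMIs (3.54, 2.47 to 5.18) and Ccnd2 178 and 479 (2.23, 1.88 to 2.67), and both stayed apart without a second hormone. The thymosin gene Tmsb15b2 had 154 and 819 UMIs (4.41, 3.71 to 5.28) and kept a ratio of 2.99.

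The same genes differed to other extents in the neighbouring classes. The Id2 ratio was 2.43 in alpha, 1.86 in delta and 1.39 in beta barcodes, that of Id3 was 1.55, 5.74 and 2.41, and that of Ccnd1 1.60, 1.13 and 1.04. Tmsb15b2 had ratios of 1.73, 7.97 and 4.16. For Id1 the ratio was 1.15 (0.953 to 1.38) in alpha, 9.68 (3.61 to 36.5) in delta and 0.864 (0.649 to 1.15) in beta barcodes. Differences between classes in these ratios were not tested. Id3, Ccnd2, Fth1, Fxyd3, Gm10076 and Cryba2 completed the 18 higher genes, and Ccnd2, Fxyd3, Gm10076 and Cryba2, which the rule for named genes does not cover, were named after their values were seen.

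Of 5 alpha cell genes measured 3 were higher in Malat1-null, against 0.857% of all genes. They include Gcg (ratio 2.75), whose level the rule limits and which supports nothing here, and Ttr (390 and 4020 UMIs, 8.55, 7.70 to 9.51). Barcodes with Gcg but not Sst at 1% were 19.4% of wild-type and 36.6% of Malat1-null Ppy barcodes, and 2 further Malat1-null barcodes had both. In barcodes without a second hormone the Ttr ratio was 1.75 and the Gcg ratio 0.74, neither counted as apart. The amino acid transporter Slc7a8 likewise went from 4.56 to 1.89. Ttr also differed within the barcodes with Gcg but not Sst at 1%. There it stood at 756 CPM in 7 wild-type and 4731 in 15 Malat1-null barcodes, without TMM scaling. The Ttr ratio was 0.664 in alpha, 15.3 in delta and 1.08 in beta barcodes. The part of the Gcg-bearing barcodes in the Ttr difference was not tested.

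Several differences rested on 1 barcode. Ghrl came from the barcode described above. A Malat1-null barcode of 28949 UMIs held 339 of 343 Apoe UMIs, 132 of 133 Cd74 UMIs and 57.8% of the Fth1 UMIs, and it also held UMIs of all 6 macrophage markers, among them 43 of Lyz2 and 34 of C1qb. Its Ppy share rested on 2409 UMIs beside 1912 of Gcg. Over all Ppy barcodes the 6 macrophage markers summed to 34.8 CPM in wild type, with 2 of 6 above 0, and to 134 in Malat1-null, with 6 of 6. Summed levels of the T or NK, B, endothelial, mesenchymal and Schwann cell lists were at most 14.1 CPM in either library. Lcn2, called lower, had all 136 of its wild-type UMIs in 1 barcode. Whether these droplets held 2 cells was not tested.

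Immediate-early genes were among the lower ones, which made up 1% of all genes measured. Of 12 immediate-early genes measured 2 were lower: Fos, with 442 and 190 UMIs (2.80-fold lower, 2.36 to 3.34), and Fosb, with 69 and 6 (13.9-fold lower, 6.05 to 39.1). Cebpd, a stress-induced factor on the NF-kB list, had 122 and 53 UMIs (ratio 0.360, 0.256 to 0.501). In barcodes without a second hormone its ratio was 0.433 (0.265 to 0.685), which did not meet the limits. The Cebpd ratio was 0.334 in alpha, 2.66 (1.08 to 7.85) in delta and 0.889 in beta barcodes. Fos ratios of similar size were found in alpha (0.367), delta (0.414) and beta barcodes (0.334). Spp1, which encodes osteopontin and is also abundant in duct cells, had 3485 and 1148 UMIs (3.66-fold lower), of which 787 wild-type UMIs were in the Lcn2 barcode. Its ratio went from 0.273 to 0.442 without a second hormone, and was 0.384 in alpha, 0.758 in delta and 0.141 in beta barcodes. Spp1 made up most of the summed ductal marker level of 3494 and 1076 CPM. The neuronal long non-coding RNA Snhg11 had 132 and 5 UMIs (31.8-fold lower, 13.3 to 99.6), with ratios of 0.298 in alpha, 0.89 in delta and 0.478 in beta barcodes.

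Acinar enzyme genes were also lower, together with their level in nearly empty droplets. Cela2a had 60 and 1 UMIs, Cpa1 66 and 2, Prss2 135 and 6, Try5 63 and 3, and Ctrb1 227 and 12. In barcodes of 10 to 100 UMIs Ctrb1 stood at 33609 CPM in the wild-type and 1715 in the Malat1-null library. The summed level of the 5 acinar markers in Ppy barcodes was 496 and 68.4 CPM. The part of free RNA in these differences was not tested.

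**Figure D4:**
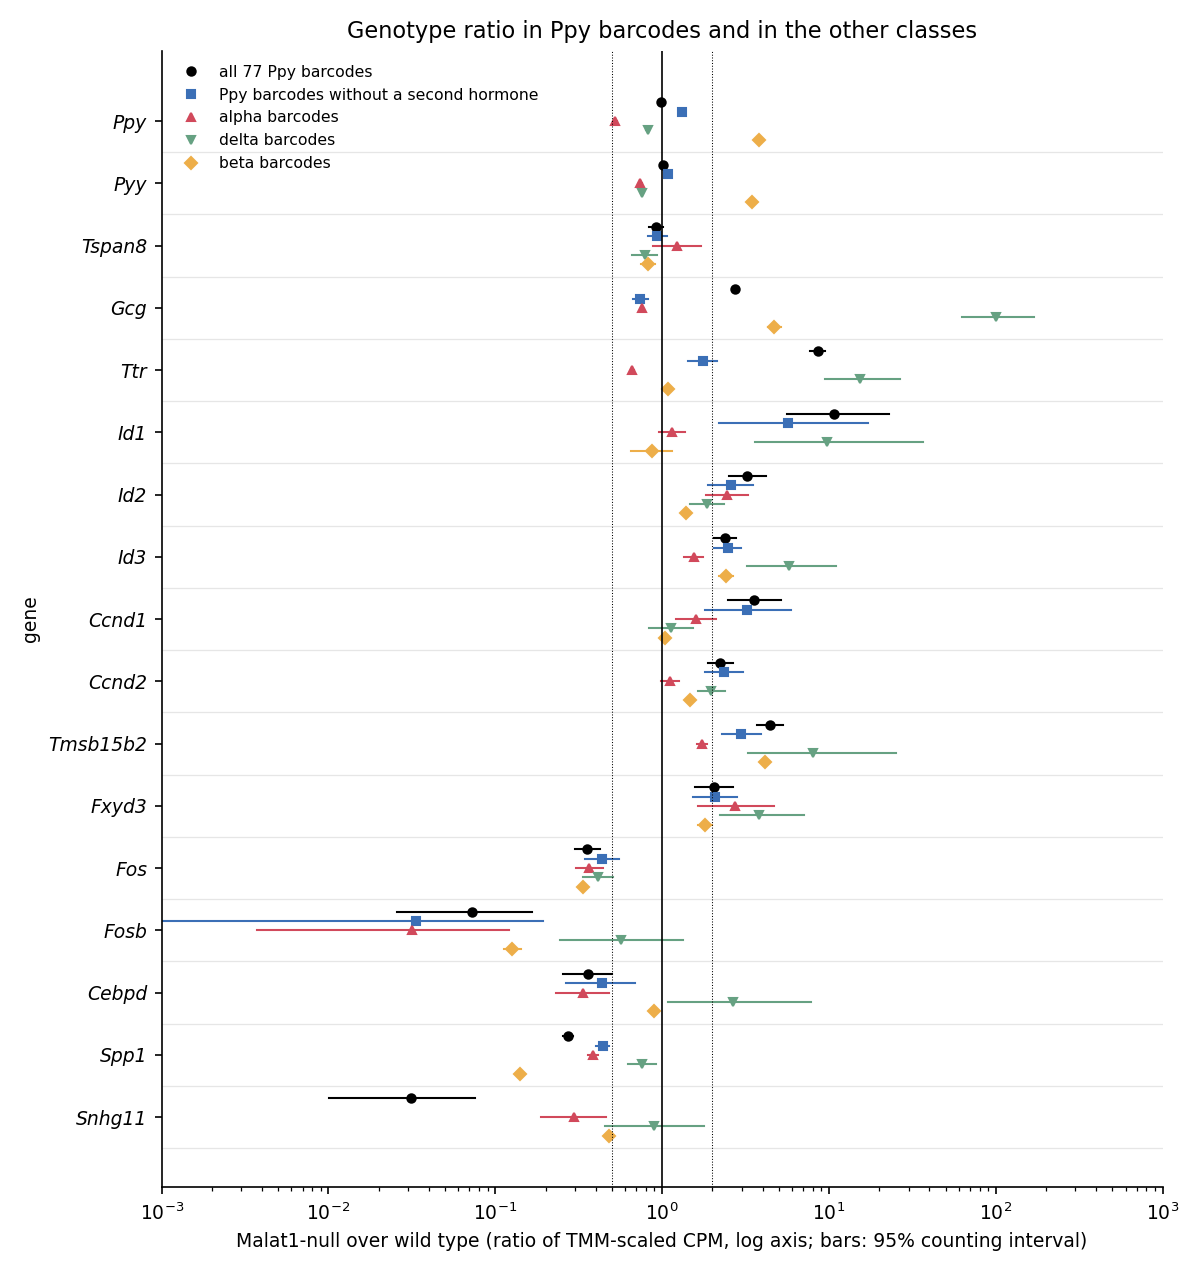
Ratio of Malat1-null over wild-type level (log axis) for 17 genes, in all Ppy barcodes, in those without a second hormone, and in alpha, delta and beta barcodes, with 95% intervals that cover counting error. Fos lies below 1 in every class drawn and Tspan8 near 1 in Ppy barcodes; points with a ratio of 0 or under 10 UMIs are not drawn, and dotted lines mark 2-fold.

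The rule left out Ppy-rich barcodes that also held insulin. Barcodes that met every other limit but had 10% or more of insulin numbered 4 in wild type and 32 in Malat1-null, with median insulin shares of 27.0% and 41.9%. The highest insulin share inside the rule was 3.63% and 9.82%, and the lowest outside 10.1% and 11.8%. Shares of the 2 hormones' UMIs were taken over the barcodes read in, which leaves out nearly empty droplets. On that basis, Ppy barcodes accounted for 86.2% (wild type) and 63.2% (Malat1-null) of Ppy UMIs. For Pyy the shares were 55.3% and 35.3%.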

How the data were processed

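The authors deposited raw gene-by-barcode UMI count matrices for each library (10x 3′ chemistry, mm10). The submitters' processing notes name Cell Ranger 2.1.0, while the matrix header names version 4, and this was not settled. Counts were used as deposited, with 32285 genes, and totalled 81872519 and 134950186 UMIs. Only 1 barcode passing the limits, and no Ppy barcode, was shared by both libraries. No doublet caller was run.

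The members and gene lists were chosen with earlier results of these data known. Class sums were tested with edgeR 4.0.16 (quasi-likelihood, library as a term, Benjamini-Hochberg) in R 4.3.3. R also gave the exact 95% intervals of genotype ratios, which cover counting error. The exact intervals of barcode shares came from scipy 1.17.1. Nothing says that the libraries are from separate animals, so p-values measure only how far class differences vary between these libraries. On simulated data the class test called 81% to 92% of 3-fold changes. The genotype rule called 100% of 4-fold and 0% of 1.5-fold changes, the latter lying under its own 2-fold limit. These simulated sums had a fixed spread (classes) or counting error only (genotype), no library effect, and no single barcode that held most of a gene's UMIs. The genes changed in them lay beforehand at 50 CPM or more (classes) or at 100 CPM or more (genotype). The rates therefore do not cover lower genes or genes carried by 1 barcode. Named genes were list members, the 12 highest and lowest genotype ratios, and the 10 largest class differences per direction. The planned comparison of Ghrl-led with Ppy-led barcodes could not be made, since none was Ghrl-led. Alternatives covered barcode limits, scaling, DESeq2 1.42.0 and the library term. Leaving out barcodes with a second hormone, and each gene's top barcode, was chosen after seeing the data. A few genes are not reported here.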

Additional observations from a re-analysis of the deposited data

Results flagged for a closer look

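Cd74, the invariant chain of MHC class II, had a Malat1-null over wild-type ratio of 27.6 in Ppy barcodes and of 0.0534 in delta barcodes, in opposite directions, and the difference was not tested. In Ppy barcodes 99.2% of its Malat1-null UMIs came from the 1 barcode that also held macrophage markers.

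Ppy RNA was also found outside the cell classes compared. Counted over the barcodes read in, without nearly empty droplets, 31.1% of Malat1-null Ppy UMIs lay in barcodes of no class, against 6.82% in wild type.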

How the results depend on the processing

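At a minimum of 10000 UMIs the wild-type share of Ppy barcodes was 2.40%. In barcodes without a second hormone 11 genes were higher in Malat1-null, and Gcg (log2 -0.43) and Fth1 (-0.24) changed direction. Against beta barcodes Hhex (-6.12), Ptprz1 (-4.48) and Slc38a5 (-5.24) changed direction in that setting, fitted values of genes with 0 UMIs there and no bounds. In the same setting 222 genes were lower than in alpha barcodes. Leaving out each library, Apoe ran from -0.47 to 6.18 against alpha, -1.91 to 5.82 against delta and -1.03 to 4.20 against beta barcodes. DESeq2 gave 90 genes lower than in alpha barcodes, with no adjusted p for 2733 of 9398. Scaling by total UMIs moved the median log2 difference by -0.449 (alpha), -0.567 (delta) and 0.320 (beta), and gave 82 higher and 848 lower, 132 and 1346, and 1129 and 416, beside 148 and 136, 214 and 278, and 652 and 702. The cause of these changes was not tested. No paired analysis was possible because each genotype had 1 library and the labels give no shared replicate numbers. With no replicate block, that is without the library term, 62 genes were higher and 68 lower than in alpha barcodes, 145 and 198 against delta and 613 and 649 against beta barcodes. Other counts and shares moved by less than 1.5 times or their interval (86 of 98). Among single genes, 828 genotype values stayed inside the counting interval of the main ratio or close to that ratio. A value inside it can still differ in direction or call. A further 82 moved outside, and 2 values of called genes changed direction. Of the class values 1856 kept their direction and, where a test was made, their call. Another 42 moved, 6 changed direction and 126 lost their call. Depth limits genes under 50 UMIs in all.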
